A study of Homo sapiens with 6 samples.

Results

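The 41 genes described here encode proteins of the human centromere and kinetochore and of the spindle checkpoint that works from it. They were chosen by name, as CENP, NDC80, MIS12, SKA and checkpoint genes, by a rule that used no measured value but was drawn up with earlier results of these data known, and all 41 were found among the 60612 Ensembl identifiers of the count table and passed the filter on low counts that left 17723 genes. The samples were U251 cells, an established human glioma line, with 3 libraries labelled NC with the genotype Normal Control and 3 labelled TEAD3_KD with the genotype TEAD3 Knockdown. TEAD3 is a DNA-binding transcription factor at the output of the Hippo pathway, and the comparison asked which transcripts differed after its knockdown by transient transfection. The labels mention both a plasmid vector and an siRNA, place the check of knockdown at about 36 h, and give neither the treatment of the controls nor whether replicates were separate cultures, so p-values measure only how far these libraries scatter, and that scatter may be technical.

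A kinetochore is the protein platform on which spindle microtubules pull each chromosome. It is built on nucleosomes that hold the histone H3 variant CENP-A. The constitutive centromere-associated network (CCAN) sits on these nucleosomes and recruits the outer KMN network (KNL1, the MIS12 complex and the NDC80 complex), which grips microtubules. Where a kinetochore is unattached, the checkpoint proteins hold back anaphase. Many of these genes are transcribed mainly in late S phase, G2 and mitosis, through promoter elements such as the CHR (cell cycle genes homology region) and CCAAT boxes.

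To show which cell cycle letters these genes carry, the promoters of 4 members are printed, chosen after their values were seen: those with the lowest fold changes among CENP-A deposition genes (CENPA and HJURP), of SPC25, a lower KMN gene, and of CENPW, the member with the highest fold change. Each runs 5′ to 3′ on the strand of its gene, from 250 bases before to 50 bases after the RefSeq start (GRCh38.p14), which for CENPA and SPC25 lies well inside the longer GENCODE gene, and capitals mark the CCAAT box, the CHR letters (TTTGAA or TTTAAA) and the E2F letters (TTTCCCGC, TTTGGCGC, TTTCGCGC or TTTGCCGC) on either strand. They lie at chr2:26785806-26786105 (CENPA, plus strand), chr2:233854486-233854785 (HJURP, minus), chr2:168890381-168890680 (SPC25, minus) and chr6:126339865-126340164 (CENPW, plus).
CENPA: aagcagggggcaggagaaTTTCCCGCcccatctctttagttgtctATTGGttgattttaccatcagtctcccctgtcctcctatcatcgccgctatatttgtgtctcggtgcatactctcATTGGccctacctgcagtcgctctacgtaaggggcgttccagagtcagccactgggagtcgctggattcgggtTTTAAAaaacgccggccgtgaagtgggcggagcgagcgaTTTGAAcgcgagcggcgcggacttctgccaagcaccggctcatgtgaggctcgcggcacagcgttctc
HJURP: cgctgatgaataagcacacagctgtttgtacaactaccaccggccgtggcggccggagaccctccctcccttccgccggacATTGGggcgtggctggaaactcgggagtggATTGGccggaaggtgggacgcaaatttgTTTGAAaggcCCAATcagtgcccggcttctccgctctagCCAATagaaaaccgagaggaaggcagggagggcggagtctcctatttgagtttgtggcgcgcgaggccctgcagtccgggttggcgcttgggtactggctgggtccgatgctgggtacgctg
SPC25: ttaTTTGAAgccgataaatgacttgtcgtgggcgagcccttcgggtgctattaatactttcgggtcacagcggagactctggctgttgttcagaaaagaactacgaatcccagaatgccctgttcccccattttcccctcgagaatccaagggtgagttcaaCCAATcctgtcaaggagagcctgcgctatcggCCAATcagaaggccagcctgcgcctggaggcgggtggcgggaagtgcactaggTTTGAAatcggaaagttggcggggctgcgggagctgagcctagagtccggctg
CENPW: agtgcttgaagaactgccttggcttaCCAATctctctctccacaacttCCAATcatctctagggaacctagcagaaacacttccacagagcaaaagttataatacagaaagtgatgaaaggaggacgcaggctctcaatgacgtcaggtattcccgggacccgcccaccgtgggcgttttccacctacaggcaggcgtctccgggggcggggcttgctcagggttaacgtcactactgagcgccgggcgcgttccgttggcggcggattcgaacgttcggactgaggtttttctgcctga

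CHR letters stood in the windows of CENPA, HJURP and SPC25 and not in that of CENPW. A RefSeq window was found for 34 of the 41 members. CHR letters were in 16 of them (47.1%), against 16.2% of the 10977 windows of tested protein-coding genes. A CCAAT box was in 21 (61.8%, against 37.1%), and both together in 9 (26.5%, against 6.81%). E2F letters were in 4 (11.8%, against 5.29%). The TEAD letters GGAATG, on either strand, were in 6 windows (17.6%, against 10.98%), those of CENPE, CENPF, CENPK, CENPQ, NUF2 and SKA2. Over 94 windows of the other chromosome segregation genes described below, the shares were 41.5% for CHR letters and 52.1% for the CCAAT box. They were 27.7% for both together, 18.1% for E2F letters and 6.38% for TEAD letters. Matches of different motifs were allowed to overlap, and a match is a run of letters, not a measured site. The median log2 fold change was -0.29 over the 16 members with CHR letters (range -0.86 to 0.12) and -0.14 over the 18 without (range -0.44 to 0.41). For the CCAAT box the order was the other way, with -0.17 over the 21 members that hold it and -0.21 over the 13 that do not. It was -0.083 over the 6 members with TEAD letters and -0.27 over the 28 without. These differences were not tested.

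Most of the members were slightly lower after TEAD3 knockdown, but no single member passed the test. The log2 fold change (knockdown over control) was below 0 for 33 of 41 members, against 50.2% of all tested genes, with a median of -0.17 beside -0.0012 for all genes. A gene is called here at an adjusted p under 0.05 in the quasi-likelihood test of edgeR. That test called 0 of 41 members, where 0.655% of all tested genes were called (0.203% lower and 0.451% higher). A stricter filter (minimum count 50) added CENPA alone (0.324% of all genes lower, 0.76% higher), and an adjusted p under 0.1 admitted CENPA and HJURP (0.671% lower, 1.12% higher). At an unadjusted p under 0.05 there were 11 lower members (7.43% of all genes were lower at that level) and 2 higher ones (8.15%). DESeq2 called 5 members lower (2.17% of all genes), CENPA, HJURP, CENPH, ZWINT and BUB1, and 0 higher (2.75%). All 3 knockdown libraries lay below all 3 controls for 11 members (10.6% of all genes) and above them for 1, CENPW (11% of all genes). In a bulk library, fewer cells of a type, here dividing cells, and less RNA per cell cannot be told apart.

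**Figure D1:**
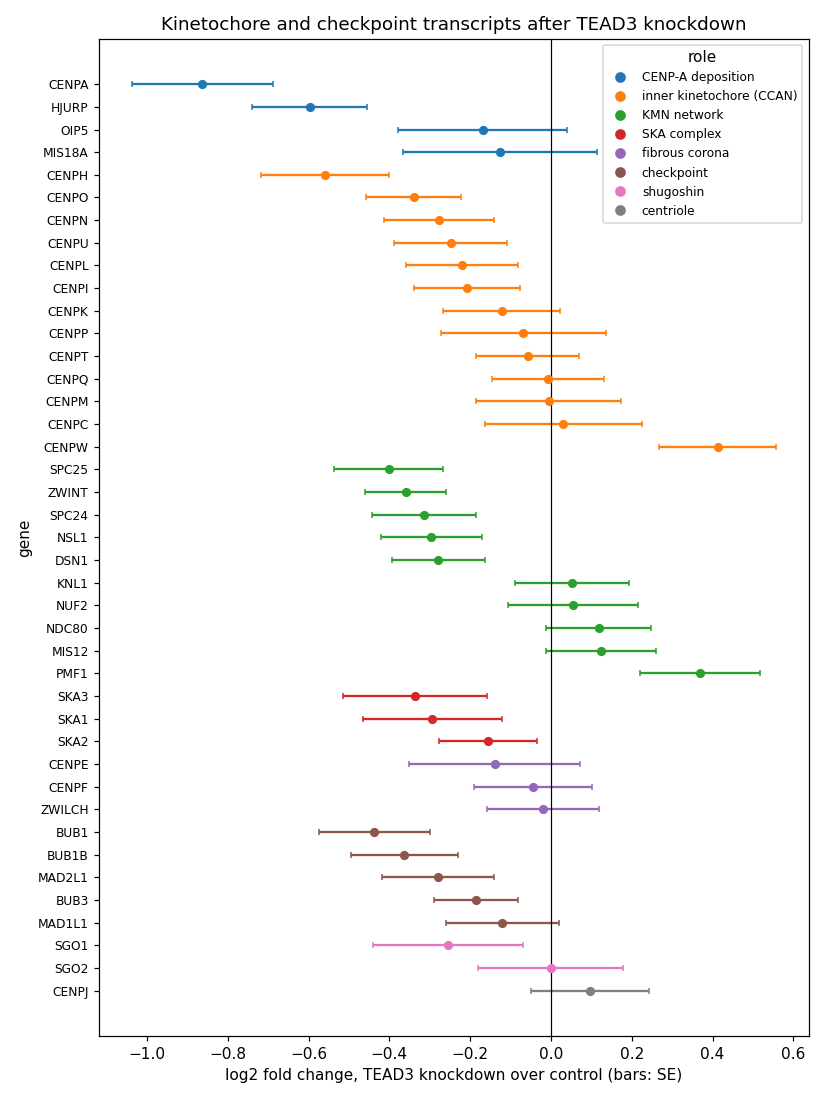
Log2 fold change of each of the 41 members, knockdown over control, with its standard error as a bar, coloured by role. CENPA lies lowest at -0.86 and CENPW highest at 0.41, and 33 of the 41 points are below 0.

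TEAD3 itself, the check of the labels, had levels of 14.9, 20.3 and 21.0 CPM in the control libraries, given here and throughout in the order of replicates 1 to 3, against 4.70, 8.35 and 6.08 CPM with knockdown (log2 fold change -1.55, SE 0.218, edgeR adjusted p = 0.0114). CPM are counts scaled to a common library size, after TMM scaling for composition. Library totals lay between 58344026 and 64808615 counts, and each member had between 201 and 6161 counts in a library. Of the glioma line markers, VIM (4484 ± 311 CPM), CD44 (648 ± 42.6), NES (185 ± 36.9) and SOX2 (150.3 ± 12.2) were abundant in controls (SD, n = 3), while GFAP was at 1.46 ± 0.298 CPM, S100B at 0.374 ± 0.310 and OLIG2 at 0 in every library. The 7 tested markers of this list had a median log2 fold change of -0.27, with 6 below 0, 4 below every control (10.6% of all tested genes were) and 0 called, VIM at -0.29, SOX2 at -0.27 and GFAP at -1.34 (edgeR adjusted p of 0.2003, 0.247 and 0.143). Their part in the members' values was not tested. The macrophage list summed to between 124.6 and 155.7 CPM, nearly all of it CD68, while PTPRC reached 0.122 CPM and AIF1 was at 0 in every library. The endothelial list came to between 2.04 and 3.55 CPM and the oligodendrocyte list to between 0.229 and 1.08 CPM, while the neuronal list, of which SYT1 made up most, summed to between 21.7 and 26.4 CPM and the epithelial list to between 313.8 and 406.8 CPM, with KRT8 and KRT18 as its main genes.

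The deposition machinery of CENP-A held the lowest fold changes. CENPA encodes the histone H3 variant that marks the centromere. The 3 controls held 10.7, 11.6 and 14.0 CPM of it, and the 3 knockdown libraries 5.59, 7.17 and 7.26 CPM. Every knockdown library was thus below every control, and the fitted level was 55.0% of control (95% interval 42.1% to 71.8%), or -0.86 as log2 (SE 0.175, edgeR adjusted p = 0.0582, DESeq2 adjusted p = 0.000434). CENPA (ENSG00000115163) occupies positions 26764289 to 26801067 of chromosome 2 (GRCh38, plus strand), where an annotated exon overlaps one of SLC35F6 on the same strand. For SLC35F6 the mean was 63.5 CPM without and 68.4 CPM with knockdown (log2 fold change 0.11, edgeR adjusted p = 0.765).

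HJURP encodes the chaperone that delivers new CENP-A to the centromere. Its level was 45.2, 36.5 and 45.6 CPM in the controls and 23.3, 32.0 and 28.9 CPM in the knockdown libraries. The groups did not overlap, and control replicate 2 was the nearest control to the knockdown libraries (66.1% of control, 95% interval 53.3% to 82.1%, log2 fold change -0.60, SE 0.142, edgeR adjusted p = 0.0922, DESeq2 adjusted p = 0.00338). OIP5 and MIS18A encode subunits of the MIS18 complex, which licenses centromeres for new CENP-A. OIP5 averaged 4.50 ± 0.851 CPM without and 4.007 ± 0.1995 CPM with knockdown (log2 fold change -0.17, edgeR adjusted p = 0.763), and MIS18A at 6.38 ± 0.683 and 5.85 ± 1.91 CPM (-0.13, 0.865). Both overlapped between groups.

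Among the 13 genes of the inner kinetochore, 11 had a fold change below 0, with a median of -0.12, and 3 were below every control (10.6% of all tested genes were). CENPH, a subunit of the CENP-H/I/K/M module at the core of the network, measured 42.0, 31.1 and 39.4 CPM in controls, against 29.7, 26.4 and 20.3 CPM with knockdown. The groups were separate by a small gap between control replicate 2 and knockdown replicate 1 (log2 fold change -0.56, SE 0.160, edgeR adjusted p = 0.139, DESeq2 adjusted p = 0.0167). CENPI, CENPK and CENPM, the partners of CENPH in that module, had log2 fold changes of -0.21, -0.12 and -0.0059 (edgeR adjusted p of 0.482, 0.751 and 0.994), and each overlapped between groups. Whether CENPH differed from its partners was not tested.

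CENPO, of the CENP-O/P/Q/U module, measured 43.8, 50.2 and 40.1 CPM without knockdown and 37.3, 36.1 and 32.6 CPM with it. All knockdown values were below all controls (log2 fold change -0.34, SE 0.118, edgeR adjusted p = 0.205), and exons of CENPO overlap ADCY3 and PTRHD1 on the opposite strand. CENPU, CENPP and CENPQ of the same module were at -0.25, -0.068 and -0.0068. CENPL and CENPN, which form a pair that contacts the CENP-A nucleosome, were at -0.22 and -0.28, and the groups were separate for CENPL. CENPC, the scaffold that ties the nucleosome to the MIS12 complex, averaged 7.45 ± 1.08 CPM without and 7.61 ± 1.46 CPM with knockdown (0.031, edgeR adjusted p = 0.970).

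CENPW, a small histone-fold protein that pairs with CENP-T, was the only member above every control. Controls held 10.4, 11.5 and 12.7 CPM, and knockdown libraries 17.1, 14.0 and 14.9 CPM, a difference of 0.41 on the log2 scale (SE 0.145, edgeR adjusted p = 0.211). Its partner CENPT averaged 32.1 ± 4.88 and 30.9 ± 1.296 CPM (-0.058, edgeR adjusted p = 0.886). The CENPW transcript is the shortest of the members, at 750 nucleotides, and over the 1369 protein-coding genes of at most 1326 nucleotides, the lowest length decile, there was a median log2 fold change of 0.19. After a correction for transcript length and GC content CENPW was at 0.046 (edgeR adjusted p = 0.890).

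**Figure D2:**
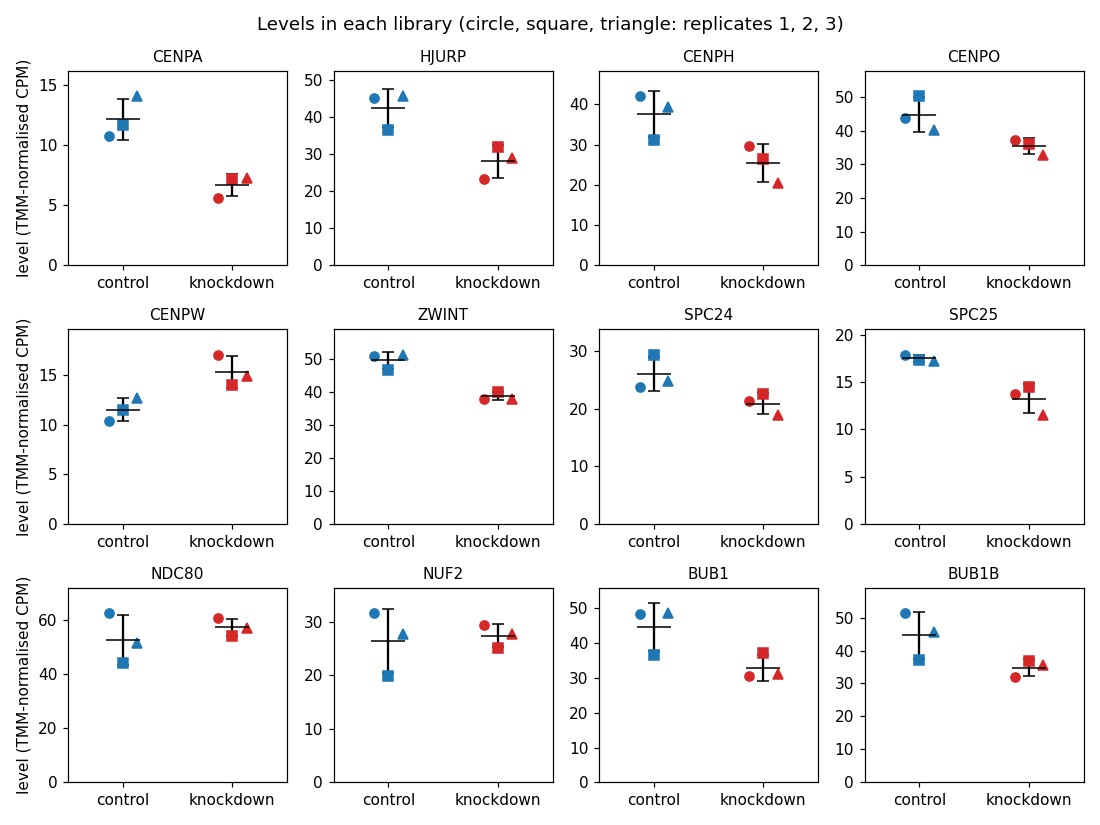
Levels of 12 members in TMM-normalised CPM in each library, with control in blue, knockdown in red, the replicate number given by the marker shape, and bars for mean and SD (n = 3). CENPA, HJURP, CENPH, CENPO, ZWINT, SPC24, SPC25 and BUB1B do not overlap between groups and are lower in the knockdown, CENPW is higher, and NDC80, NUF2 and BUB1 overlap.

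In the KMN network 5 of 10 genes were below 0 and 5 above, and the test called none. With the length and GC correction, those above were at -0.014 (KNL1), -0.068 (NUF2), 0.029 (NDC80), 0.083 (MIS12) and 0.21 (PMF1). ZWINT, a KNL1 partner needed for checkpoint signalling, measured 51.0, 46.8 and 51.4 CPM in controls against 38.1, 40.1 and 38.1 CPM after knockdown. The spread within each group was small beside the gap (log2 fold change -0.36, SE 0.1002, edgeR adjusted p = 0.131, DESeq2 adjusted p = 0.0277). KNL1, the scaffold that binds ZWINT and the BUB proteins, was at 16.4 ± 1.53 and 17.0 ± 2.07 CPM (0.052, edgeR adjusted p = 0.913).

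In the 4-subunit NDC80 complex, which binds the microtubule, the subunits at its kinetochore end and those at its microtubule end had different values. SPC25 held 17.9, 17.3 and 17.2 CPM in controls against 13.8, 14.4 and 11.5 CPM after knockdown (log2 fold change -0.40, SE 0.135, edgeR adjusted p = 0.192). SPC24, its partner at the kinetochore end, averaged 25.97 ± 2.98 and 20.9 ± 1.84 CPM (-0.32, edgeR adjusted p = 0.273). The groups were separate for both. NDC80 and NUF2, the subunits at the microtubule end, were at 52.8 ± 9.24 and 57.3 ± 3.23 CPM and at 26.4 ± 5.94 and 27.4 ± 2.23 CPM, with log2 fold changes of 0.12 and 0.055 (edgeR adjusted p of 0.728 and 0.923) and overlapping groups. For NDC80 and NUF2, control replicate 2 was the lowest of all 6 libraries, at 44.2 and 19.9 CPM. The difference between the 2 ends of the complex was not tested.

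In the MIS12 complex, which joins the inner to the outer kinetochore, DSN1 (45.8 ± 5.28 to 37.8 ± 1.63 CPM, log2 fold change -0.28) and NSL1 (52.8 ± 7.25 to 43.0 ± 3.63 CPM, -0.30) were lower at an unadjusted p of 0.033 and 0.0378 (edgeR adjusted p of 0.275 and 0.291), while MIS12 was at 0.12 (0.723). PMF1, the remaining subunit, measured 41.5, 61.7 and 44.4 CPM in controls against 69.5, 62.8 and 58.1 CPM after knockdown. Its log2 fold change was 0.37 (SE 0.149), higher at an edgeR unadjusted p of 0.031 (edgeR adjusted p = 0.268). Its exons are shared with the read-through gene PMF1-BGLAP on the same strand. PMF1-BGLAP itself had 18.1, 3.01 and 12.8 CPM in controls against 3.71, 3.997 and 4.04 CPM after knockdown. Control replicates 1 and 3, the lowest for PMF1, were thus the highest for the read-through gene. The sum of the 2 genes was 60.5 ± 3.86 CPM in controls against 67.4 ± 5.55 CPM after knockdown, with values of 57.1 to 64.7 and 62.2 to 73.2 CPM that overlap.

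All 3 genes of the SKA complex, which helps the NDC80 complex follow a shortening microtubule, had fold changes below 0, and none was called. SKA1 was at 6.83, 6.38 and 7.62 CPM in controls against 5.75, 5.96 and 5.28 CPM after knockdown, with no overlap (log2 fold change -0.29, edgeR adjusted p = 0.444). SKA2 was at 86.2, 64.5 and 81.7 CPM and then 73.4, 69.7 and 65.5 CPM (-0.16, edgeR adjusted p = 0.588). SKA3 was at 19.3, 14.1 and 18.5 CPM and then 12.3, 17.0 and 11.8 CPM (-0.34, edgeR adjusted p = 0.397). Control replicate 2 was the lowest control for each of the 3 and lay among the knockdown libraries for SKA3 and below them for SKA2.

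The fibrous corona, an outer layer that assembles on unattached kinetochores, was nearest to no difference, with a median of -0.045. CENPE, a plus-end-directed kinesin, was at 8.23, 5.38 and 7.43 CPM in controls against 6.77, 5.15 and 7.18 CPM after knockdown (log2 fold change -0.14, edgeR adjusted p = 0.818). CENPF, a large coiled-coil protein, was at 54.5, 36.2 and 51.2 CPM and then 48.8, 45.5 and 43.4 CPM (-0.045, edgeR adjusted p = 0.934). ZWILCH, of the ROD-ZW10-ZWILCH complex that brings dynein to kinetochores, was at 31.2, 23.3 and 32.5 CPM and then 29.7, 26.7 and 29.5 CPM (-0.019, edgeR adjusted p = 0.9746). In CENPF and ZWILCH the knockdown values lay between control replicate 2 and the other controls. The fitted levels were 90.8%, 97.0% and 98.7% of control for CENPE, CENPF and ZWILCH, with 95% intervals from 65.8% to 125.4%, 77.5% to 121.3% and 79.9% to 121.9%. Changes within these limits are compatible with the data.

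All 5 spindle checkpoint genes among the members were below 0, with a median of -0.28, and edgeR called none. Of the 9 other corona and checkpoint genes described below, 6 were below 0 and 3 above, with a median of -0.028. BUB1, the kinase that gathers checkpoint proteins on KNL1, was at 48.4, 36.6 and 48.5 CPM in controls against 30.5, 37.1 and 31.0 CPM after knockdown. Knockdown replicate 2 just overlapped control replicate 2 (log2 fold change -0.44, SE 0.137, edgeR adjusted p = 0.167, DESeq2 adjusted p = 0.0446). BUB1B, which encodes BUBR1, a subunit of the mitotic checkpoint complex, was at 51.3, 37.2 and 45.5 CPM and then 31.9, 36.8 and 35.5 CPM. These groups did not overlap, by a gap between control replicate 2 and knockdown replicate 2 that was small beside the spread (-0.36, SE 0.132, edgeR adjusted p = 0.224). MAD2L1, which encodes the MAD2 protein that inhibits the anaphase activator CDC20, was at 59.0 ± 11.5 and 48.6 ± 2.11 CPM (-0.28, edgeR adjusted p = 0.366). BUB3 and MAD1L1, which bind BUB1 and MAD2, were at -0.19 and -0.12 (edgeR adjusted p of 0.422 and 0.743).

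The shugoshins protect centromeric cohesin until anaphase. SGO1 was at 20.5, 12.6 and 18.3 CPM in controls against 14.5, 16.2 and 12.4 CPM after knockdown (log2 fold change -0.25, edgeR adjusted p = 0.560). SGO2 was at 11.3, 8.07 and 8.37 CPM and then 8.88, 8.42 and 10.4 CPM (-0.00089, edgeR adjusted p = 0.999). Both overlapped between groups. CENPJ carries a CENP name but encodes a centriole assembly protein. It was at 9.91, 9.02 and 9.47 CPM in controls against 9.49, 10.98 and 9.90 CPM after knockdown (0.096, edgeR adjusted p = 0.818).

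Control replicate 2 stood apart from the other controls over these genes. It was the lowest of the 6 libraries for 13 of the 41 members, next to knockdown replicate 3 with 14, while control replicates 1 and 3 were the lowest for 3 and 0. Control replicate 1 was the highest for 21. The median deviation of the members from their mean over the 6 libraries was, on the log2 scale, 0.24, -0.092 and 0.15 for the controls against -0.060, -0.069 and -0.14 for the knockdown libraries, so control replicate 2 fell among the knockdown libraries. Member transcripts were poor in GC: their median was 41.6% against 49.0% for tested protein-coding genes, and 33 of 41 lay below that value. Over 13690 protein-coding genes, a correlation across genes that are no replicates, the deviation of control replicate 2 had a Spearman rho of 0.5635 with GC content and that of control replicate 1 one of -0.4599, with values from -0.185 to 0.145 elsewhere. With transcript length, rho was 0.24, -0.091 and 0.22 for the controls and -0.26, -0.09 and -0.045 for the knockdown libraries.

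**Figure D3:**
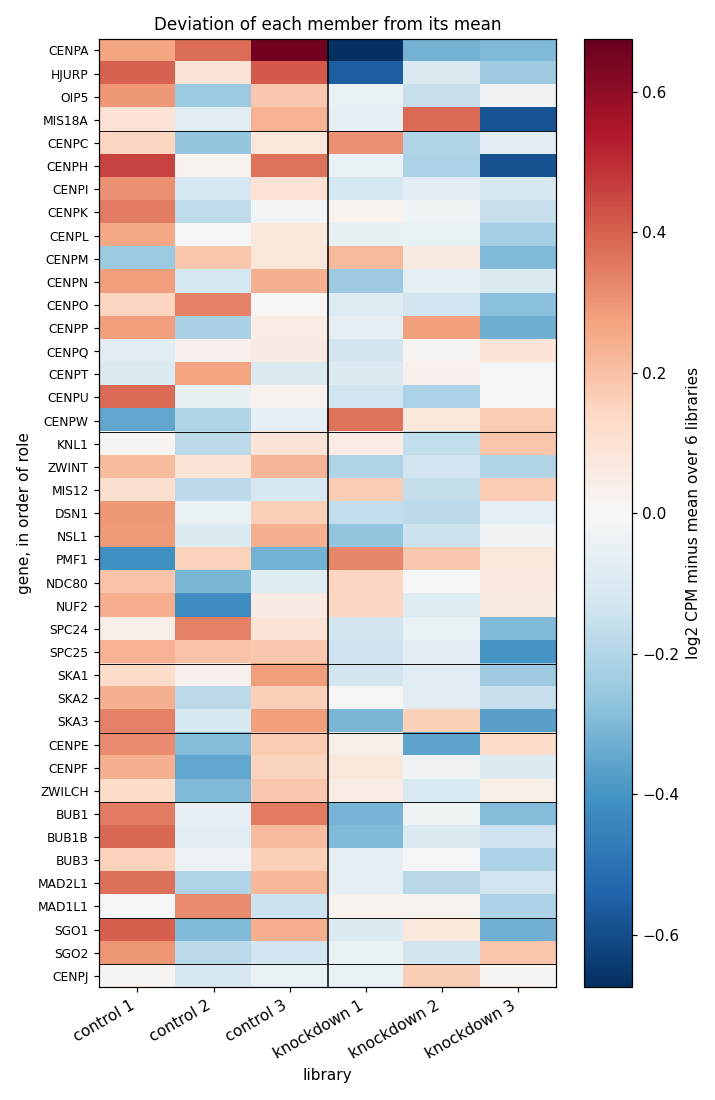
Deviation of each member in each library from its mean over the 6 libraries, as log2 CPM, with genes as rows in order of role and libraries as columns. Control replicate 1 is highest for 21 members, knockdown replicate 3 is lowest for 14 and control replicate 2 for 13.

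A correction for transcript length and GC content in each library placed all 3 controls on one side. It also removed a length trend that differed in part between the groups, and the part of this in the calls was not tested. The median deviation became 0.20, 0.079 and 0.14 for the controls against -0.13, -0.066 and -0.16 for the knockdown libraries, and the members' median log2 fold change became -0.26 (-0.045 for all genes). With it edgeR called 7 members lower (2.36% of all genes) and 0 higher (1.44%): CENPA (-0.94, edgeR adjusted p = 0.0197), HJURP (-0.54, 0.0374), CENPH (-0.70, 0.0199), ZWINT (-0.41, 0.0167), SPC25 (-0.59, 0.0347), NSL1 (-0.41, 0.0282) and BUB1 (-0.42, 0.0498). The knockdown libraries were below every control for 18 members (16.6% of all genes) and above for 0 (10.3%). Over all genes this correction gave 255 higher and 418 lower calls, where the uncorrected test gave 80 and 36. With the replicate number as a block as well, only CENPA was called among the members (-0.95, edgeR adjusted p = 0.0358; of all genes 0.446% were called lower and 0.474% higher).

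Without control replicate 2, edgeR called 7 members lower (1.78% of all genes), CENPA, HJURP, CENPH, ZWINT, BUB1, BUB1B and MAD2L1, and 1 higher, PMF1 (1.4% of all genes), and the members' median was -0.25. CENPA was then at -0.90 (edgeR adjusted p = 0.0428), HJURP at -0.70 (0.0364), CENPH at -0.68 (0.0491), ZWINT at -0.40 (0.0418) and BUB1 at -0.56 (0.0374). BUB1B was at -0.48 (edgeR adjusted p = 0.0441), MAD2L1 at -0.43 (0.0413) and PMF1 at 0.56 (0.032). For PMF1, control replicate 2 was the highest control, at 61.7 CPM. For the read-through gene PMF1-BGLAP it was the lowest, at 3.01 CPM. No member was called when any one of the other 5 libraries was left out, and CENPA then lay between -0.94 and -0.74. Control replicate 2 had the lowest median deviation of the controls over these members. The fit without it therefore favours lower fold changes over the members as a whole, and a higher one for PMF1, and is no independent support. The 5 genes CENPA, HJURP, CENPH, ZWINT and BUB1 were called in both of these fits and by DESeq2. They are also the members with the smallest unadjusted p in the reported edgeR test. All of these fits reuse the same libraries, so the shared calls are no independent support either. The reported test, limma-voom and the replicate block called 0 members.

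**Figure D4:**
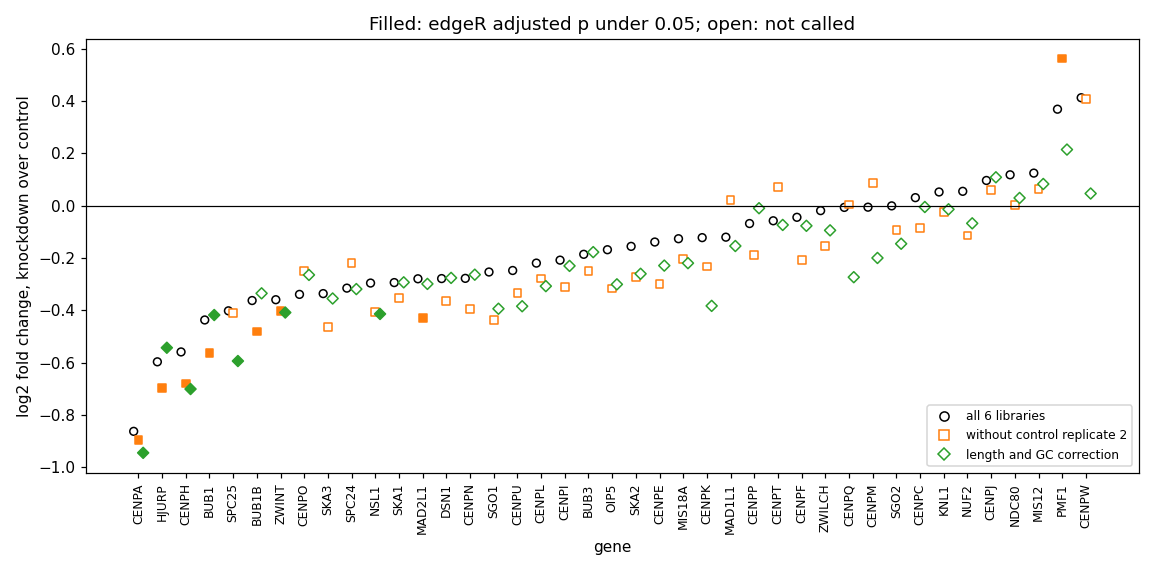
Log2 fold change of each member with all 6 libraries (circles), without control replicate 2 (squares) and with the length and GC correction (diamonds), filled where edgeR adjusted p was under 0.05. No circle is filled, CENPA, HJURP, CENPH, ZWINT and BUB1 are filled in both alternatives, and CENPW moves from 0.41 to 0.046 with the correction.

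Per kilobase of a representative annotated transcript, control levels of the members ranged from 0.814 ± 0.171 CPM per kb for CENPE to 46.0 ± 10.2 CPM per kb for PMF1. Next to PMF1 came SKA2 (27.7 ± 4.10), CENPH (27.0 ± 4.09), ZWINT (26.6 ± 1.35) and NDC80 (24.3 ± 4.25), which did not differ beyond their SD. Subunits of one complex were at unequal transcript levels. NDC80 was above NUF2 (13.4 ± 3.02), SPC25 (12.9 ± 0.251) and SPC24 (11.2 ± 1.29 CPM per kb), while those last 3 differed by less than the spread of NUF2. In the MIS12 complex PMF1 was followed by NSL1 (22.8 ± 3.13), DSN1 (18.8 ± 2.16) and MIS12 (8.48 ± 0.898 CPM per kb). CENPW (15.4 ± 1.56) and CENPT (13.7 ± 2.08 CPM per kb), which pair as proteins, lay within their SD of each other. The longest transcripts, of CENPF, KNL1, CENPP and CENPE, were between 0.814 and 4.59 CPM per kb. These values rest on 1 annotated transcript for each gene, and the cells may use another.

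Beside the members, 111 other genes of chromosome segregation and its control were examined in 9 lists, also drawn up with earlier results known. Of these, edgeR called 2 lower and 0 higher, where 0.203% and 0.451% of all tested genes were called. At an unadjusted p under 0.05, 43 were lower and 4 higher (7.43% and 8.15% of all genes), DESeq2 called 23 lower and 1 higher (2.17% and 2.75%), and the median log2 fold change was -0.17. The called genes were KIF2C, a microtubule-depolymerising kinesin that corrects wrong attachments, which fell from values of 112.0 to 117.9 CPM in controls to 68.0, 88.5 and 74.6 CPM after knockdown (log2 fold change -0.57, SE 0.112, edgeR adjusted p = 0.0493), and NCAPG2, a condensin II subunit, which fell from 62.1, 53.5 and 57.7 CPM to 38.8, 40.9 and 39.4 CPM (-0.54, SE 0.103, edgeR adjusted p = 0.0445). Both stood close to the threshold. KIF2C was called in 9 and NCAPG2 in 10 of 18 settings, the reported one included. With library size alone, no filter and the replicate block, edgeR gave adjusted p of 0.0539, 0.1297 and 0.0974 for KIF2C and of 0.0586, 0.1004 and 0.1062 for NCAPG2, and KIF2C also missed the threshold with DESeq2 size factors (0.0513) and upper-quartile scaling (0.0503). Leaving out 1 library kept the call of KIF2C only without control replicate 2 or knockdown replicate 2 (edgeR adjusted p of 0.035 and 0.046), and that of NCAPG2 only without control replicate 2 (0.0228), and otherwise the adjusted p was at most 0.311 and 0.278. The log2 fold changes lay between -0.68 and -0.49 for KIF2C and between -0.59 and -0.49 for NCAPG2 when 1 library was left out.

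Some lists of genes active in mitosis lay mostly below 0, while the anaphase-promoting complex and other inner centromere lists, described below, did not. Differences between lists were not tested. The chromosomal passenger complex, whose kinase AURKB corrects attachments, had 5 of 5 genes below 0 and a median of -0.30, with INCENP at 26.8, 33.2 and 29.7 CPM in controls against 18.3, 21.6 and 17.2 CPM after knockdown (log2 fold change -0.65, edgeR adjusted p = 0.0582) and CDCA8 at -0.45 (0.11). Mitotic kinases and cyclins had 14 of 14 below 0, with a median of -0.26, CCNA2 at -0.46 and NEK2 at -0.49 (edgeR adjusted p of 0.107 and 0.157). Microtubule attachment factors had 12 of 13 below 0 with a median of -0.24, PRC1 among them at -0.56 (edgeR adjusted p = 0.0774). In the cohesin and condensin list 16 of 21 were below 0, with a median of -0.12 and SMC1A at -0.40 (edgeR adjusted p = 0.11).

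The 6 proliferation markers were all below every control (10.6% of all tested genes were), with a median of -0.40. TYMS, of thymidylate synthesis, was at -0.54 (edgeR adjusted p = 0.0719) and TOP2A at -0.43 (0.115). Their summed level was 900.7 to 952.5 CPM in the controls and 648.8 to 778.7 CPM in the knockdown, with knockdown replicate 2 the highest of the 3. The summed level of the 41 members was 1281.8, 1081.8 and 1215.7 CPM for the controls against 1077.2, 1072.2 and 1027.9 CPM for the knockdown libraries. The part of a general shift in dividing cells in the members' values was not tested.

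The 18 genes of the anaphase-promoting complex and separase had a median of 0.0027, with 9 on each side, ESPL1 at -0.37 (edgeR adjusted p = 0.225) and UBE2C at -0.36 (0.236). Other corona and checkpoint genes had a median of -0.028, with TRIP13 at -0.29 and MAD2L1BP at 0.14 (edgeR adjusted p of 0.312 and 0.566), and the 5 other inner centromere genes a median of 0.034, with CENPS at -0.22 and ITGB3BP at 0.14 (0.51 and 0.669). Among regulators of these promoters, the DREAM, MMB and FOXM1 list, 17 of 20 were below 0 with a median of -0.29. LIN37, a subunit shared by the DREAM and MMB complexes, went the other way, from 16.6, 22.2 and 17.7 CPM in controls to 30.4, 24.1 and 30.3 CPM (0.59, SE 0.148, edgeR adjusted p = 0.104, DESeq2 adjusted p = 0.00746). Its transcript, of 1150 nucleotides, is in the lowest length decile, and exons overlap ENSG00000188223 on the same strand and ENSG00000267439 on the opposite one. With the length and GC correction LIN37 was at 0.44 (edgeR adjusted p = 0.0453), and it was called in 3 of 18 settings. TFDP1, the E2F partner, was at -0.36 (edgeR adjusted p = 0.127).

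**Figure D5:**
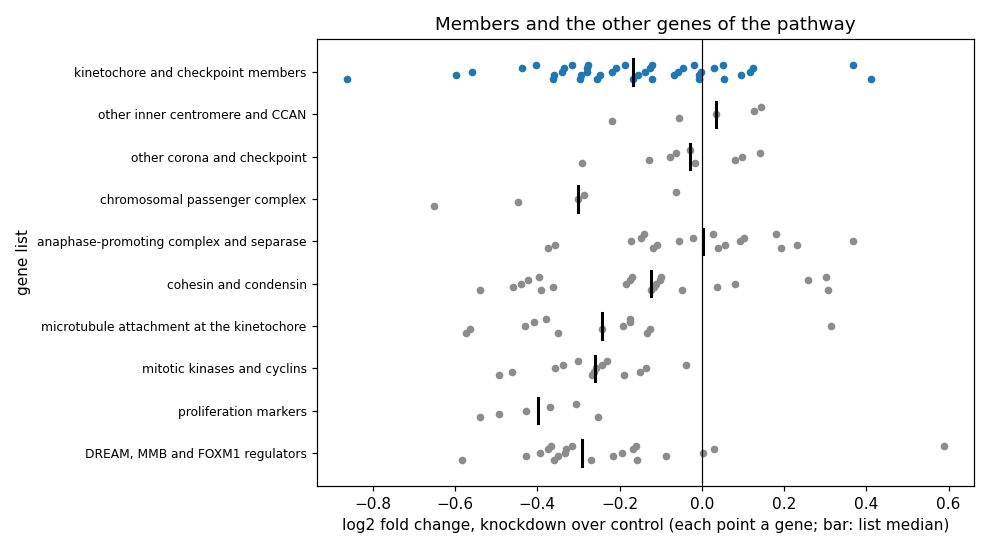
Log2 fold change of every gene in the member list (blue) and in 9 other lists of chromosome segregation and its control (grey), with a bar at each list's median. Medians run from -0.40 for proliferation markers to 0.034 for other inner centromere genes, with the members at -0.17.

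Exons of 18 of the 41 members overlap another annotated gene, 3 on the same strand (CENPA, PMF1 and BUB1B, whose read-through partner BUB1B-PAK6 had no count) and 15 on the opposite strand, and 10 have a pseudogene that carries their name. How the counting treated strand and reads that fit several places is not given in the sources used here, so these counts are uncertain to that extent.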

How the data were processed

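Whole-number counts per gene for 6 U251 libraries (3 control, 3 TEAD3 knockdown) were deposited by the authors as 1 table, unscaled. The submitters' processing notes name build GRCh38 and, in no stated order or role, StringTie 1.3.4d, HISAT2 2.0.4, cutadapt 1.9, edgeR and DESeq2. The counting tool is not given in the sources used here, nor is its annotation. Per the labels' protocols, poly(A) RNA was sequenced from strand-marked libraries.

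From these counts, the fold changes and p-values were computed with edgeR 4.0.16 in R 4.3.3 (filterByExpr with a minimum count of 10, TMM, quasi-likelihood F test, two-sided, group as the only term, Benjamini-Hochberg adjustment over 17723 genes), after a test on simulated counts. Library totals of 58344026 to 64808615 give a floor of 0.0463 to 0.0514 CPM for 3 counts, for counting error only. Identifiers were named from the reference gene table, with 24 left without a symbol; positions, transcript lengths and GC content came from GENCODE release 29 (GRCh38) and promoters from RefSeq. Length was that of the longest principal transcript. The members and lists were chosen with earlier results of these data known. Shown by library were the 2 members of each role with the smallest unadjusted p (all in roles of 3 or fewer), and, of the other lists, the called genes. Otherwise up to 2 genes of a list, those with the smallest p, were named, of which INCENP and LIN37 were shown by library after their values were seen. Further members shown by library (CENPW, PMF1) were chosen after their values were seen. The alternatives were other scalings, filters and thresholds, DESeq2 1.42.0, limma-voom (limma 3.58.1), the replicate block, leaving out each library, removal of mitochondrial genes and of the 10 other genes with most counts, and a loess correction (span 0.3, fitted on 13690 genes) for length and GC content.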

Additional observations from a re-analysis of the deposited data

How the results depend on the processing

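Members called were 0 in the reported test, 0 by limma-voom and 0 with each other scaling. They were 1 with a stricter filter (minimum count 50), 5 by DESeq2, 7 with the length and GC correction, 1 with that correction and the replicate block, and 2 at an adjusted p under 0.1, and ranged from 0 to 8 when 1 library was left out. Genes called in all were 116, and 31 without a filter, 872 by DESeq2, 63 with the replicate block, 673 with the length and GC correction, 27 at an adjusted p under 0.01 and 318 under 0.1, with 20 to 589 when 1 library was left out. The members' median stayed between -0.27 and -0.12 in every setting. TEAD3 was not called without a filter (-1.56) and lay between -1.80 and -1.37 when 1 library was left out, not called without control replicate 3 or knockdown replicates 1 or 3. Libraries of the same replicate number showed no sign of pairing (correlations of deviations 0.0056, -0.017 and 0.0083), although such correlations cannot exclude it. The replicate block called 0 members.

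Of 697 member values under the alternatives, 39 changed sign, all of uncalled members near 0, and 22 passed the threshold. SGO2 was 0.00084 with DESeq2 size factors, 0.0077 with upper-quartile scaling, 0.0026 with the stricter filter, 0.00050 by DESeq2, 0.0031 by limma-voom and 0.0099 with the replicate block. With upper-quartile scaling CENPM was 0.0031 and CENPQ 0.0017. With the length and GC correction CENPC was -0.0052, KNL1 -0.014 and NUF2 -0.068 (-0.017, -0.015 and -0.059 with the block as well), and ITGB3BP -0.19 (-0.18). When 1 library was left out, the ranges that crossed 0 were MIS18A -0.39 to 0.087, CENPC -0.13 to 0.13, CENPK -0.23 to 0.042, CENPM -0.12 to 0.13, CENPP -0.24 to 0.066, CENPQ -0.056 to 0.053, CENPT -0.12 to 0.072, KNL1 -0.034 to 0.14, NUF2 -0.11 to 0.20, CENPF -0.21 to 0.070, ZWILCH -0.16 to 0.071, MAD1L1 -0.22 to 0.021 and SGO2 -0.098 to 0.17. Each member had at least 201 counts in every library.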
